A study of Arabidopsis thaliana with 6 samples.

Results

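4 genes of the plant cell wall were followed in anthers of *myb80* mutant and wild-type *Arabidopsis thaliana*. They are AT3G23770 and AT5G64790, which encode glucanase-family glycosyl hydrolases, EXPA24, which encodes an alpha-expansin, and CSLC12, which encodes a cellulose synthase-like protein. Each has 1 probe set of its own among 22746 probe sets of the array that are not controls, of which 13513 name a single gene, 13350 genes in all. The 4 were selected on their intensities in this same comparison of mutant and wild type, so their differences are given as a description, and nothing is read from a test of them. No member shares a further probe set with another gene.

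The arrays measured total RNA of anthers of stages 5 to 8, about 1000 dissected for each biological replicate, per the labels. There were 3 arrays of the *myb80* mutant (replicates 1, 4 and 5-2) and 3 of wild type (replicates 2, 5 and 6). MYB80, a transcription factor, acts in the tapetum, the innermost anther layer, and is needed for fertile pollen. The labels name neither the allele nor the accession of the plants, and no treatment. Whole anthers hold several cell types, so fewer cells of a type and less RNA per cell cannot be told apart.

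The walls that surround a pollen mother cell and its products are remade within these stages. Callose, a beta-1,3-glucan, encloses the meiotic cells and the tetrads, and enzymes secreted by the tapetum dissolve it to free the microspores. Beta-1,3-glucanases of glycoside hydrolase family 17 (GH17) cut such glucans. Expansins loosen walls without cutting them. Proteins of the CSLC group make the glucan backbone of xyloglucan, a polymer that binds cellulose, and are distinct from the callose synthases, which are also called glucan synthase-like.

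Values below are scaled intensities, which are the deposited intensities multiplied by 1 factor per array so that all arrays share a median. Before taking log2, values were raised to a floor of 16, under which between 19.0% and 22.0% of probe sets lay on each array. Fold changes and log2 differences are mutant against wild type and use floored values, and brightness is not compared between probe sets. Mutant replicate 4 stood apart from the other mutant arrays. Pearson's r of its log2 values, across probe sets, was 0.911 and 0.918 with the other mutant arrays and 0.906 to 0.919 with the wild-type arrays. In the 243 probe sets that fell in the comparison, it was the highest of the 3 mutant arrays in 164 (67.5%), against 24.7% of all probe sets tested. Member values are therefore also given without it. All 8 measured tapetum markers, among them AMS, EMS1, SPL and ATA27, lay above the floor on all 6 arrays. MYB80 was not analysed here.

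All 4 genes were lower in the mutant, and in each of them every mutant array lay below every wild-type array. The glucanase genes had the largest differences, 19.4-fold for AT3G23770 and 16-fold for AT5G64790, and CSLC12 and EXPA24 were 5.96-fold and 5.00-fold lower. Ordered from the lowest log2 difference upwards among 15164 probe sets tested, they stood 12th, 22nd, 167th and 210th. Groups did not overlap, with the mutant below, in 8.90% of all probe sets tested. All 4 were also among the probe sets that fell at limma adjusted p under 0.05, which make up 1.60% of those tested. When dim probe sets were tested too, 2 probe sets fell in total, so this call did not hold for all 4. Nothing is read from the call or from the shares of 8.90% and 1.60%, since the comparison itself chose the genes.

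AT3G23770, one of the glucanase-family genes, had scaled intensities of 366, 57.3 and 16.1 in mutant replicates 1, 4 and 5-2, against 927, 1913 and 1395 in wild-type replicates 2, 5 and 6. The mutant arrays spread over a 22.7-fold range, from the floor to a level within 2.54-fold of the lowest wild-type array, while the wild-type arrays spread over 2.06-fold. On the log2 scale the mutant mean was 6.12 ± 2.27 and the wild-type mean 10.40 ± 0.52 (SD, n = 3 each), a difference of -4.28. The size of this difference rested on single arrays. It was 44.6-fold without mutant replicate 1, 17.6-fold without mutant replicate 4 and 9.35-fold without mutant replicate 5-2. Set singly against the wild-type mean, replicate 1 kept 27.0% of the wild-type level, replicate 4 kept 4.23% and replicate 5-2 kept 1.19%.

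AT5G64790, the second glucanase-family gene, had scaled intensities of 3.97, 57.0 and 3.87 in mutant replicates 1, 4 and 5-2, against 476, 497 and 254 in wild-type replicates 2, 5 and 6. Mutant replicate 4 alone lay above the floor among the mutant arrays, and it was still 4.45-fold under the lowest wild-type array. The log2 means were 4.61 ± 1.06 in the mutant and 8.61 ± 0.54 in wild type (SD, n = 3 each), with a difference of -4.0. Since 2 mutant arrays were at the floor, the fold understates the difference. Without mutant replicate 4 it was at least 24.5-fold, and replicate 4 alone was 6.86-fold lower than wild type, at 14.6% of its level. The 2 glucanase genes thus kept most signal on different mutant arrays, AT3G23770 on replicate 1 and AT5G64790 on replicate 4.

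EXPA24, the expansin gene, had scaled intensities of 6.26, 15.5 and 17 in mutant replicates 1, 4 and 5-2, against 38.3, 149 and 94.7 in wild-type replicates 2, 5 and 6. All 3 mutant arrays were at or near the floor, and the wild-type arrays, spread over 3.90-fold, were dim. The log2 means were 4.03 ± 0.05 in the mutant and 6.35 ± 1.00 in wild type (SD, n = 3 each), a difference of -2.32. The small mutant SD is set by the floor. Leaving out mutant replicate 4 gave 4.95-fold, while leaving out wild-type replicate 2 or 5 gave 7.29-fold or 3.69-fold. With a floor of 32 the log2 difference was -1.35.

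CSLC12, the cellulose synthase-like gene, had scaled intensities of 28.2, 51.4 and 30.7 in mutant replicates 1, 4 and 5-2, against 202, 255 and 182 in wild-type replicates 2, 5 and 6. No array was at the floor, and both groups were tight, spreading over 1.82-fold in the mutant and 1.40-fold in wild type. The log2 means were 5.15 ± 0.47 in the mutant and 7.72 ± 0.25 in wild type (SD, n = 3 each), a difference of -2.57. Mutant replicate 4 was the highest mutant array, at 24.3% of the wild-type mean, against 13.9% for the mean of the other mutant arrays. Without replicate 4 the gene was 7.17-fold lower. Leaving out any single array gave between 5.31-fold and 7.17-fold, the narrowest range among the 4 genes.

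**Figure D1:**
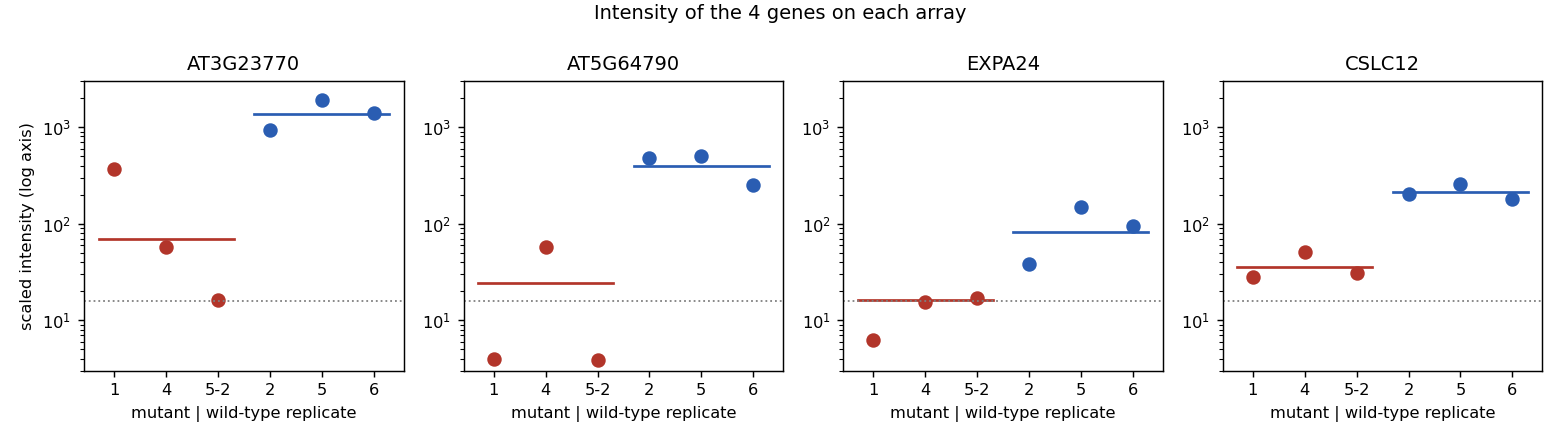
Scaled intensity (log axis) of the 4 genes on each of 3 mutant arrays (red) and 3 wild-type arrays (blue), with the replicate names below, the geometric mean of floored values as a bar and the floor of 16 as a dotted line. In each gene all red points lie below all blue ones; AT3G23770 keeps most signal on mutant replicate 1 (366) and AT5G64790 on mutant replicate 4 (57.0).

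The test leaves out 1 in 3 probe sets, those with the lowest mean log2 value across both groups, and all 4 genes passed that filter. The lowest mean kept was 5.10. AT5G64790 and EXPA24 passed through their wild-type arrays, since their mutant means of 4.61 and 4.03 lay under that limit.

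Of 8 markers of microspores and pollen that could be tested, 3 fell (AGL104, ACT12 and ANX2, limma adjusted p = 0.0171, 0.0328 and 0.0109), where 1.60% of all probe sets tested fell. The other 5 did not pass. At unadjusted p under 0.05 by limma, 7 of the 8 were lower, where 7.41% of all probe sets tested were lower. Of the 3 that fell, ACT12 and ANX2 passed the filter on dim probe sets through their wild-type arrays. Their mutant means lay under its limit of 5.10, and the mutant spread of ANX2 is set by the floor. AGL65, 1 of the 7 lower at unadjusted p, also had a mutant mean under this limit. Its groups overlapped, with 72.0 on mutant replicate 1 against 55.9 and 69.7 on wild-type replicates 2 and 6. Of 48 genes listed, 10 had a named probe set of their own, and 9 of these had a lower mean in the mutant. The median log2 difference of the 10 was -2.02, against 0.04 over all probe sets tested. Their summed scaled intensity was 330, 1952 and 475 in mutant replicates 1, 4 and 5-2, against 4094 to 6297 in wild type. In wild type and on mutant replicate 4 most of this sum came from AT5G45880, which did not pass (limma adjusted p = 0.105). Without it, a sum taken after the values were seen, the other 9 gave 299, 526 and 239 in the mutant, against 834 to 1310 in wild type. ANX1, ANX2 and CHX21 were at the floor on all 3 mutant arrays, and CHX21 also on all wild-type arrays. With and without AT5G45880 the highest mutant sum was on replicate 4, where AT5G64790 and CSLC12 were also highest among mutant arrays, but AT3G23770 and EXPA24 were not. The part of these cells in the differences of the 4 genes was not tested. Of 8 tapetum markers, all tested, 2 rose (AT5G62080 and AT5G52160, limma adjusted p = 0.0277 and 0.0172), where 0.448% of all probe sets tested rose. The other 6 did not pass. Among these, ATA27, SHT and SPL had lower means in the mutant (log2 differences -0.69, -0.41 and -0.04). At unadjusted p under 0.05 by limma, 4 of the 8 were higher, where 4.87% of all probe sets tested were higher. The summed intensity of the 8 ran from 21882 to 43488 in the mutant and from 16157 to 20608 in wild type. Without AT5G62080, the brightest by mean log2 value, the ranges overlapped, at 12731 to 30160 in the mutant and 12562 to 18362 in wild type. Of 8 measured markers of meiosis and of other floral or green tissue, none of the 5 tested was called by limma. LHCB4.1 and ATMND1 had an unadjusted p under 0.05, both higher, where 4.87% of all probe sets tested were higher. The sum of the 8 was 1105 to 1408 in the mutant and 731 to 1050 in wild type. Without LHCB4.1, the brightest, the other 7 gave 489 to 514 in the mutant and 362 to 452 in wild type. That sum was also taken after the values were seen. SPO11-2 and SDS had lower means in the mutant (log2 differences -0.95 and -0.30), and the other 6 did not.

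The other genes of the same families were set beside the 4, with members left out of every count and p-values adjusted over all 15164 probe sets. Of 51 GH17 genes, 38 besides AT3G23770 and AT5G64790 had a probe set of their own and 25 were bright enough to test. Among these 2 fell and none rose, where 1.60% of all probe sets tested fell and 0.448% rose. At unadjusted p under 0.05 there were 3 lower and 3 higher, where 7.41% of all probe sets tested were lower and 4.87% higher. The median log2 difference of the 25 was 0.04, the same as over all probe sets tested, and the differences ran from -1.5 to 1.84.

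AT1G66250, a GH17 gene that fell, had 159, 143 and 138 in mutant replicates 1, 4 and 5-2, against 376, 503 and 375 in wild-type replicates 2, 5 and 6. It was 2.83-fold lower (log2 difference -1.5 ± 0.26, SE, n = 3 each, limma adjusted p = 0.0268). AT4G26830, the other GH17 gene that fell, had 222, 150 and 227 in the mutant, against 500, 640 and 475 in wild type, and was 2.72-fold lower (-1.44 ± 0.28, limma adjusted p = 0.0392). The groups did not overlap in either gene. The differences changed little over 13 alternative settings, from -1.57 to -1.36 for AT1G66250 and from -1.55 to -1.25 for AT4G26830, but the calls did not hold in all of them. AT1G66250 passed in 6 and AT4G26830 in 4, with adjusted p from 0.00753 to 0.116 and from 0.0114 to 0.175, and neither passed when all probe sets were tested or when either wild-type replicate 2, 5 or 6 was left out.

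The GH17 gene at the opposite end, AT3G24330, which was singled out after its values were seen, had 396, 99.4 and 152 in mutant replicates 1, 4 and 5-2, against 42.1, 51.1 and 60.9 in wild-type replicates 2, 5 and 6. Its groups did not overlap, with a log2 difference of 1.84 ± 0.46, and it did not pass (limma adjusted p = 0.0918). It passed in 4 of 13 alternatives, namely without mutant replicate 4 (log2 difference 2.27, adjusted p = 0.0227), with a floor of 32 (0.033), with a stricter filter on dim probe sets (0.0442) and with a mean-variance trend (0.0389). Over the 13 the adjusted p ran from 0.0227 to 0.381.

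**Figure D2:**
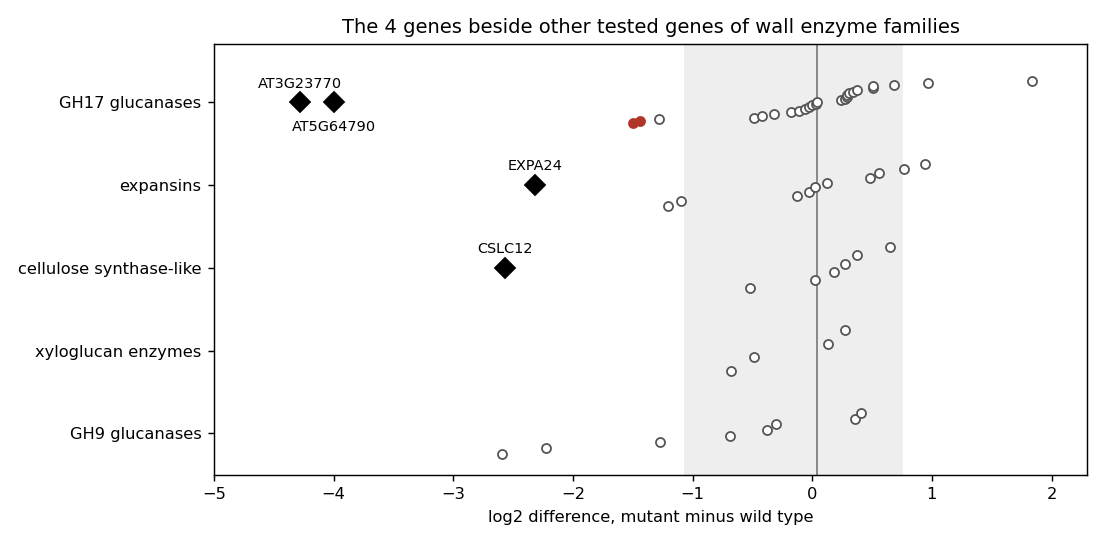
Log2 difference, mutant minus wild type, of the 4 genes (black diamonds) and of the other tested genes of 5 wall enzyme families (circles; red where limma adjusted p is under 0.05). The grey line and band mark the median (0.04) and the range from the 5th to the 95th percentile (-1.06 to 0.75) of all probe sets tested; the diamonds lie to the left of the band, and most circles lie inside it.

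Of 38 expansin genes, 18 besides EXPA24 had a probe set of their own, and 10 of these were tested. None rose or fell by limma's adjusted p. At unadjusted p under 0.05, 1 was lower and 1 higher, where 7.41% of all probe sets tested were lower and 4.87% higher. Their log2 differences ran from -1.21 to 0.94, with a median of 0.07. EXPB5, a beta-expansin gene, had 73.0, 86.9 and 26.1 in mutant replicates 1, 4 and 5-2, against 91.3, 246 and 91.7 in wild-type replicates 2, 5 and 6, a log2 difference of -1.21 ± 0.53 (SE, n = 3 each, limma adjusted p = 0.395). The alpha-expansin gene EXPA9 had 58.8, 69.2 and 50.4 in the mutant, against 33.8, 46.1 and 18.7 in wild type, a difference of 0.94 ± 0.36 (limma adjusted p = 0.305). In both genes the groups did not overlap, though narrowly. Over all probe sets tested, 8.90% did not overlap with the mutant below, and the share with the mutant above was not counted.

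In RefSeq's gene order EXPA24 stands beside other expansin genes, namely EXPA25, EXP26, EXPA23, EXPA22 and EXPA21. Of these, EXPA21 had a named probe set, and it was at the floor on all 6 arrays. The others were not analysed here, and signal from such close copies on the EXPA24 probe set was not tested. Over all 4 genes, 10 of the 40 nearest protein-coding genes (5 on each side) were tested. None was called, and none had an unadjusted p under 0.05 by limma. Their log2 differences ran from -0.55 to 0.43.

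All 5 CSLC genes of *Arabidopsis* had a probe set, which allows CSLC12 to be set beside its whole group. CSLC04 had 164, 168 and 149 in mutant replicates 1, 4 and 5-2, against 109, 139 and 124 in wild-type replicates 2, 5 and 6 (log2 difference 0.37 ± 0.25, SE, limma adjusted p = 0.636). CSLC5 had 106, 111 and 115 in the mutant, against 87.2, 111 and 96.5 in wild type (0.18 ± 0.25, limma adjusted p = 0.859). These genes were close to even between the groups, with the mutant arrays slightly above in CSLC04. CSLC6 had 155, 112 and 105 in the mutant, against 112, 124 and 75.5 in wild type (0.27 ± 0.30, limma adjusted p = 0.819). ATCSLC08 had 39.3, 33.0 and 59.9 in the mutant, against 62.1, 50.6 and 72.1 in wild type (-0.52 ± 0.31, limma adjusted p = 0.58). None of the other 4 CSLC genes passed the test, and their differences of -0.52 to 0.37 compare with -2.57 for CSLC12; the difference between CSLC12 and the others was not tested, since CSLC12 was chosen for its own.

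**Figure D3:**
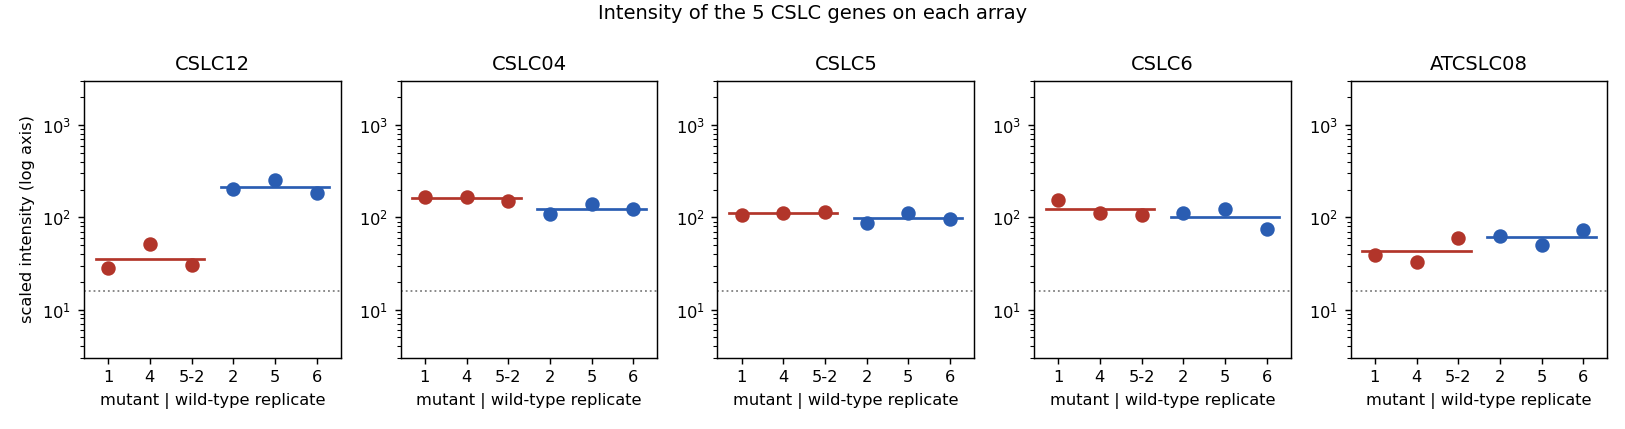
Scaled intensity (log axis) of the 5 CSLC genes on each of 3 mutant arrays (red) and 3 wild-type arrays (blue), with bars for the geometric mean and a dotted line at the floor of 16. CSLC12 is separated widely (28.2 to 51.4 in the mutant, 182 to 255 in wild type), whereas the groups overlap in CSLC5, CSLC6 and ATCSLC08 and lie next to each other in CSLC04.

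Of 56 genes in the cellulose synthase and cellulose synthase-like list, 7 besides CSLC12 had a probe set of their own. The 6 tested had a median log2 difference of 0.22. None of these 6 was called by limma, and none had an unadjusted p under 0.05. They include the other CSLC genes described above. No gene of the cellulose synthases themselves (CESA) was among the 7, so these were not analysed here. CSLD2, of the CSLD group, had 186, 101 and 256 in mutant replicates 1, 4 and 5-2, against 149, 121 and 69.5 in wild-type replicates 2, 5 and 6 (0.65 ± 0.41, limma adjusted p = 0.61). Its groups overlapped. None of 12 callose synthase genes was the only gene named for a probe set, so the enzymes that make the substrate of beta-1,3-glucanases were not analysed here.

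Genes whose names match enzymes of xyloglucan or of cellulose-like glucans were also listed. Of 46 genes in the xyloglucan list, 11 were measured and 4 tested. None was called, and 1 was lower at unadjusted p under 0.05, where 7.41% of all probe sets tested were lower. The median log2 difference was -0.18, against 0.04 over all probe sets tested. EXGT-A3, a xyloglucan endotransglucosylase also named XTH27, had 145, 142 and 213 in mutant replicates 1, 4 and 5-2, against 307, 245 and 238 in wild-type replicates 2, 5 and 6 (-0.68 ± 0.28, SE, limma adjusted p = 0.363). XTH33 had 31.9, 58.4 and 71.1 in the mutant, against 106, 112 and 30.6 in wild type, so its groups overlapped (-0.49 ± 0.52, limma adjusted p = 0.801). The 4 tested genes include XEG113, which was matched only by its name xyloglucanase 113. That name does not show that it acts on xyloglucan.

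Of 24 genes in the glycoside hydrolase family 9 (GH9) list, of endo-1,4-beta-glucanases, 15 were measured and 8 tested. None passed, and 3 were lower and none higher at unadjusted p under 0.05, where 7.41% of all probe sets tested were lower and 4.87% higher. The median log2 difference was -0.53, against 0.04 over all probe sets tested. GH9B5 had 14.8, 90.1 and 40.2 in mutant replicates 1, 4 and 5-2, against 426, 249 and 120 in wild-type replicates 2, 5 and 6, which is 6.04-fold lower (-2.59 ± 0.63, SE, n = 3 each, limma adjusted p = 0.0796). GH9A4 had 49.9, 10.8 and 20.6 in the mutant, against 63.3, 254 and 106 in wild type, 4.69-fold lower (-2.23 ± 0.56, limma adjusted p = 0.0865). In size these differences were like that of EXPA24, with groups that did not overlap. Over all probe sets tested, 8.90% did not overlap with the mutant below. Both genes had 1 mutant array at the floor. GH9A4 passed the filter through its wild-type arrays, since its mutant geometric mean of 25.4 lay under the lowest mean kept, 34.4. GH9B5 passed in 4 of 13 alternatives, namely without mutant replicate 4 (-3.20, adjusted p = 0.0178), with a floor of 32 (0.0186), with the stricter filter (0.0355) and with the trend (0.0275), and its adjusted p ran from 0.0178 to 0.394. GH9A4 passed in 2 of 12, without mutant replicate 1 (-2.72, adjusted p = 0.0486) and with the trend (0.0496), and its adjusted p ran from 0.0486 to 0.394.

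The genes most like each of the 4 were sought by Pearson's r of log2 intensity over the 6 arrays, among 8425 other tested probe sets with a single gene. All points share the split into mutant and wild type, which alone gives a high r, and a like order of arrays follows from choosing genes by the highest r, so the values below are a description. AT3G23770 was most like AT1G20150 (r = 0.997), AT3G57620 (r = 0.992) and AT1G45545 (r = 0.99). AT1G20150 had 338, 89.6 and 35.4 in mutant replicates 1, 4 and 5-2, against 783, 1194 and 1279 in wild-type replicates 2, 5 and 6. AT3G57620 had 476, 41.0 and 5.90 in the mutant, against 678, 1361 and 1120 in wild type. Of the mutant arrays, replicate 1 was highest and replicate 5-2 lowest in both genes.

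AT5G64790 was most like AT4G02250 (r = 0.999), the tetraspanin gene TET11 (r = 0.993) and AT1G71680 (r = 0.992). These r use floored values. AT5G64790, AT4G02250 and AT1G71680 were all at the floor on mutant replicates 1 and 5-2, so the floor makes part of their match. AT4G02250 had 4.17, 57.6 and 1.93 in mutant replicates 1, 4 and 5-2, against 564, 494 and 323 in wild-type replicates 2, 5 and 6. TET11, in which no array was at the floor, had 547, 1141 and 654 in the mutant, against 3129, 3381 and 1978 in wild type. These genes were highest on replicate 4 among the mutant arrays.

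CSLC12 was most like AT3G22050 (r = 0.996), AT1G20135 (r = 0.994) and AT5G54010, which encodes the glycosyltransferase UGT79B6 (r = 0.992). AT5G54010 had 79.5, 158 and 122 in mutant replicates 1, 4 and 5-2, against 643, 813 and 691 in wild-type replicates 2, 5 and 6. CSLC12 and AT5G64790 had an r of 0.991 with each other, whereas AT3G23770 had between 0.785 and 0.807 with the other 3. EXPA24 was most like AT3G60520 (r = 0.99), AT4G28000 (r = 0.989) and AT1G51210 (r = 0.984). AT4G28000 had 5.10, 8.16 and 6.13 in the mutant, against 53.6, 310 and 105 in wild type. All its mutant arrays were at the floor, and those of EXPA24 were at or near it, so here too the floor makes part of the match.

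**Figure D4:**
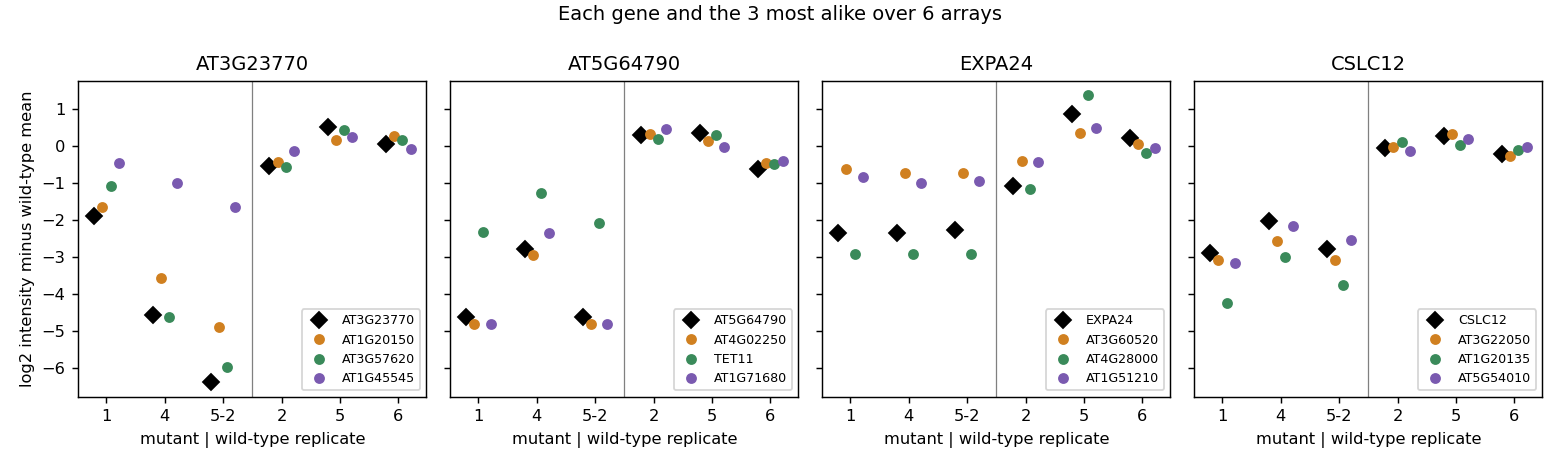
Log2 intensity, floored at 16, minus the wild-type mean of the same probe set, for each of the 4 genes (black diamonds) and the 3 genes most like it (coloured circles) on 3 mutant and 3 wild-type arrays. The mutant arrays differ in order between panels: replicate 1 is highest for AT3G23770, replicate 4 for AT5G64790 and CSLC12, and all 3 are about level for EXPA24.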

How the data were processed

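The deposited table holds linear intensities, with a value for each probe set on each array, as their range shows. RNA was labelled with biotin, per the labels. The mean after trimming 2% at each end was 150.01 on every array. The software and the background correction were not given in the sources at hand.

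Medians differed by 0.323 on the log2 scale, so each array was multiplied by 1 factor (0.897 to 1.12). Values under the floor of 16 were set to it before taking log2. The 64 controls and the 1 in 3 probe sets with the lowest mean log2 value across both groups were left out, which left 15164. Groups were compared in R 4.3.3 with limma 3.58.1 (lmFit, eBayes, two-sided, Benjamini-Hochberg), called at adjusted p under 0.05. The step was also run on simulated data, in which the spread around group means was shuffled between arrays. That run lacks the departure of mutant replicate 4, its outcome is not given here and nothing is read from it. The labels describe biological replicates but do not say whether they were grown apart. The p-values cover only the spread among these arrays, and the technical part of that spread was not tested. At most 1 deposited value was identical between any 2 arrays. The number of arrays limits precision.

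Of 22746 probe sets, 13513 name 1 gene through the platform annotation, 503 several and 8730 none; 13436 were matched to RefSeq (TAIR10.1) for symbols and gene order. Coordinates are omitted because no build is named in the files, and no sequences were used here. A gene with several probe sets was represented by the brightest.

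The genes, lists and settings were chosen with earlier results of these data known. Named are the 4 genes, up to 4 called genes per list or otherwise the 2 with the smallest p, and the 3 genes most like each of the 4. CSLC04, CSLC5, CSLC6 and AT3G24330 were added after their values were seen. Alternatives were the intensities as deposited, quantile normalization, other floors and filters, a mean-variance trend and leaving out each array.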

Additional observations from a re-analysis of the deposited data

How the results depend on the processing

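No paired analysis was possible because the mutant and wild-type groups share fewer than 2 replicate numbers. Over the 13 alternatives the log2 differences ran from -5.48 to -3.22 for AT3G23770, -5.35 to -3.33 for AT5G64790, -2.87 to -1.35 for EXPA24 and -2.84 to -2.41 for CSLC12. Nothing is read from their common direction, since the genes were selected on this comparison. Every mutant array lay below every wild-type array, so leaving out an array could not reverse it. The filters and the trend cannot change a difference of means. The values that left the replicate spread were -5.35 for AT5G64790 with no floor and -1.35 for EXPA24 with a floor of 32, both set by how values near the floor are treated. Leaving out single arrays gave -5.48 to -3.22 for AT3G23770, -4.61 to -3.70 for AT5G64790, -2.87 to -1.88 for EXPA24 and -2.84 to -2.41 for CSLC12.

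The counts over all probe sets, 68 higher and 243 lower, moved far more. They were 54 and 87 on the intensities as deposited, 61 and 133 after quantile normalization, 124 and 408 with a floor of 32, and 23 and 47 with no floor. With no filter they were 1 and 2, with the stricter filter 94 and 296, and with a mean-variance trend 118 and 409. Leaving out single arrays gave 12 to 117 higher and 31 to 418 lower, with most calls without mutant replicate 4. In the GH17 list, 2 fell in the main setting, 1 on the intensities as deposited and 0 with no floor or no filter, and 0 to 1 when single arrays were left out; 0 rose in the main setting and 1 with a floor of 32, with a stricter filter on dim probe sets and with a trend, and 0 to 1 without single arrays. In the GH9 list, 0 fell in the main setting, 1 with a floor of 32 or a stricter filter, 2 with a trend and 0 to 1 without single arrays. The cause was not tested. Low values near the floor limit what EXPA24 and the mutant arrays of AT5G64790 can show.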
